A study of Rattus norvegicus with 18 samples.

Results

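The genes described here encode the proteins of the mitochondrial ribosome, taken by their rat symbols, which begin with Mrpl (large subunit) or Mrps (small subunit) and go on with a number. The rule found 68 genes among 16665 named genes on the array, 42 of the large and 26 of the small subunit, measured by 85 probes. Each gene is represented by its brightest probe. RNA came from the dissected hypothalamus of 18 male Wistar rats, 9 weeks old, each hybridised alone to a 1-colour Agilent array. The 6 control rats were neither restrained nor given a wheel. The 6 rats of the stress group underwent restraint for 1 to 1.5 h on 5 days of each of 3 weeks. The 6 rats of the stress+exercise group underwent that restraint and could run in a wheel of their own will for 4 weeks, the first of them before the restraint began. No group ran without restraint, so running is measured only on top of stress, and the tissue holds every cell type of the hypothalamus.

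The mitochondrial ribosome translates the few messages of mitochondrial DNA, which encode core subunits of the respiratory chain and the ATP synthase. Its ribosomal RNAs come from mitochondrial DNA, but all of its proteins are encoded in the nucleus, made in the cytosol and imported. Some descend from bacterial ribosomal proteins, and others were gained in the mitochondrial line. Neurons draw most of their ATP from oxidative phosphorylation, and inherited defects of single members cause respiratory chain deficiency, often with brain disease. Of the 68 genes, 41 have a bacterial counterpart and 27 do not. They lie on 18 chromosomes.

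All 68 genes were well above background on all 18 arrays, and all were tested. A level is the log2 processed signal minus the 75th percentile of that array, so 0 is that percentile, and 60 of the 68 lay above it on average. Mean levels over all arrays ran from -1.35 to 6.86, with a median of 2.58. As brightness of probes, which differ in binding strength, the highest values belonged to the probes of Mrpl10 (6.86), Mrpl20 (4.90), Mrpl17 (4.62), Mrpl58 (4.52), Mrps26 (4.41) and Mrpl30 (4.38). The lowest belonged to those of Mrps2 (-1.35), Mrps27 (-1.22), Mrps5 (-1.05), Mrps22 (-0.52), Mrps18b (-0.39) and Mrpl38 (-0.15). The members varied little between rats of 1 group: the median pooled within-group SD was 0.07, against 0.15 over all 31293 tested probes. The tested probes include much dimmer ones, and probes of like brightness were not compared, so this gap may not be particular to these genes. Mrpl19 and Mrps14 had the smallest SD (0.03) and Mrps15 the largest (0.25). The SD of Mrps15 was 0.14 in control, 0.06 with exercise and 0.40 in stress rats, whose arrays lay on slides 3 and 4. The RefSeq gene table also lists 40 pseudogenes under these symbols, 9 of them of Mrpl30, and 21 members have at least 1. Whether a probe also binds a copy was not tested.

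The arrays lay on 5 slides, and this division ran through the members. Slides 1 to 3 held the 6 control rats and stress rats 1 to 4 (10 arrays), and slides 4 and 5 held stress rats 5 and 6 and all rats with exercise (8 arrays). The first principal component of all probes (31.8% of the variance) separated these sets, at -32.0 to -20.7 for slides 1 to 3 and 25.7 to 39.2 for the others. Slides 2 and 4 were scanned on scan day 1, and slides 1, 3 and 5 on scan day 2. Each array detected 63.6% to 77.7% of its 45598 probes above background. All 14 hypothalamic markers, among them Oxt, Avp, Crh and Pomc, were well above background on all 18 arrays.

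Stress alone was compared with control to see what 3 weeks of restraint left in these genes. None of the 68 passed the test (limma, adjusted p under 0.05 over all tested probes), and none of the 31293 probes did (0%). At an unadjusted p under 0.05, 7 of 68 members and 3755 of all probes stood out. Differences ran from -0.20 to 0.12 with a median of 0.03 (-0.01 over all probes), and the lowest adjusted p of a member was 0.348. The median SE of a member was 0.05. No difference of the sizes seen here passed, from -0.20 to 0.12, so shifts of those sizes could have been missed.

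The members with the smallest p were Mrps26, Mrps24 and Mrpl14 on the higher side. Mrps24, the counterpart of bacterial S3, which lines the path of the message into the small subunit, lay at 2.57, 2.64 and 2.68 in control rats (lowest, median, highest). In stress rats it lay at 2.69, 2.71 and 2.78, a difference of 0.09 (SE 0.03, adjusted p = 0.354). Mrps24 was the 1 member whose stress and control rats did not overlap, as 0.802% of all probes did not. Mrps26, which has no bacterial counterpart, differed by 0.12 (SE 0.04, adjusted p = 0.348) and Mrpl14, a protein of the subunit interface, by 0.12 (SE 0.05, adjusted p = 0.356). On the lower side, Mrpl10 differed by -0.16 (SE 0.07, adjusted p = 0.394), Mrpl50 by -0.08 (SE 0.05, adjusted p = 0.489) and Mrps14 by -0.05 (SE 0.03, adjusted p = 0.495). Within slides 1 to 3 the same test gave 0 of 68 members and 0 of all probes, with differences of -0.13 to 0.13 in the members. Within scan day 1, where control rats of slide 2 met stress rats 5 and 6 of slide 4, 22 members passed, 19 higher and 3 lower, against 19.4% of all probes. Within scan day 2, where both groups lay on slides 1 and 3, no member and 0 of all probes passed.

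Exercise on top of stress was compared with stress alone to see what the wheel added. One member of 68 changed, Mrps14, against 3.74% of all probes (1.19% higher, 2.55% lower). Mrps14, the counterpart of bacterial S14 in the head of the small subunit, fell by 0.17 (SE 0.03, adjusted p = 0.0340), a 1.13-fold change. Its levels were 1.28, 1.32 and 1.37 in stress rats (lowest, median, highest) and 1.10, 1.14 and 1.22 with exercise. The groups did not overlap, as was true of 1.45% of all probes, and all 6 exercised rats lay below the stress mean. The call was narrow: over 33 alternative settings the difference of Mrps14 ran from -0.23 to -0.11, its adjusted p from 0.00109 to 0.752, and 14 settings called it. Leaving out control rat 6, any of stress rats 1 to 4 or any exercised rat ended the call, with differences of -0.19 to -0.17.

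On slide 4 alone, the 1 slide with rats of both treatments, Mrps14 was at 1.32 and 1.28 in stress rats 5 and 6 and at 1.14 in both exercised rats, a difference of -0.16 (SE 0.05, adjusted p = 0.253). There none of the 68 members passed, and only 4 of all 31293 tested probes did. On scan day 2, which set stress rats 1 to 4 on slide 3 against exercised rats 3 to 6 on slide 5, 25 members passed, 17 higher and 8 lower, against 27.9% of all probes. The count of members called in this comparison thus lay between 0 and 25 with the arrays chosen.

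Other members came near the threshold without passing it. Mrps18a, a version of the bacterial S18 protein that sits in the large subunit, was at 2.48, 2.65 and 2.84 in stress rats and at 2.81, 2.87 and 2.92 with exercise, a difference of 0.22 (SE 0.06, adjusted p = 0.0507). The highest stress values were those of stress rats 6 (2.84) and 5 (2.76), and only these reached or came near the exercised rats. Mrpl38, a protein of the central protuberance with no bacterial counterpart, differed by 0.20 (SE 0.06, adjusted p = 0.0621). Mrpl12 differed by 0.13 (SE 0.04, adjusted p = 0.0708) and Mrps15 by -0.45 (SE 0.14, adjusted p = 0.0636).

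Stress with exercise was compared with control as the sum of both treatments. Here 24 of 68 members changed, 16 higher and 8 lower (35.3%), against 27.2% of all probes, of which 13.4% were higher and 13.8% lower. The median SE was 0.05 for the members and 0.09 for all probes, and it was lower for the members in every comparison. Shares of members and of all probes were therefore not measured with like precision. The median difference of the members was 0.06 and that of all probes 0.02. The sizes were small: the largest rise, of Mrps18a, was 1.22-fold and the largest fall, of Mrps15, 1.58-fold. By group, 9 of 41 members with a bacterial counterpart were higher and 5 lower, and 7 of 27 without one were higher and 3 lower. The split of directions among called members changed with the scaling. Without scaling between arrays 6 members passed, 1 higher (Mrps18a) and 5 lower (Mrpl10, Mrpl58, Mrps14, Mrps15, Mrps35), against 16.5% of all probes. There the members' median was 0.00 and that of all probes -0.03, so the members' median lay above it as it did with scaling. The median SE of the members was 0.06 without scaling. With quantile normalization 14 were higher and 7 lower (30.9%), with a median of 0.03, against 28.5% and a median of 0.05 over all probes.

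**Figure D1:**
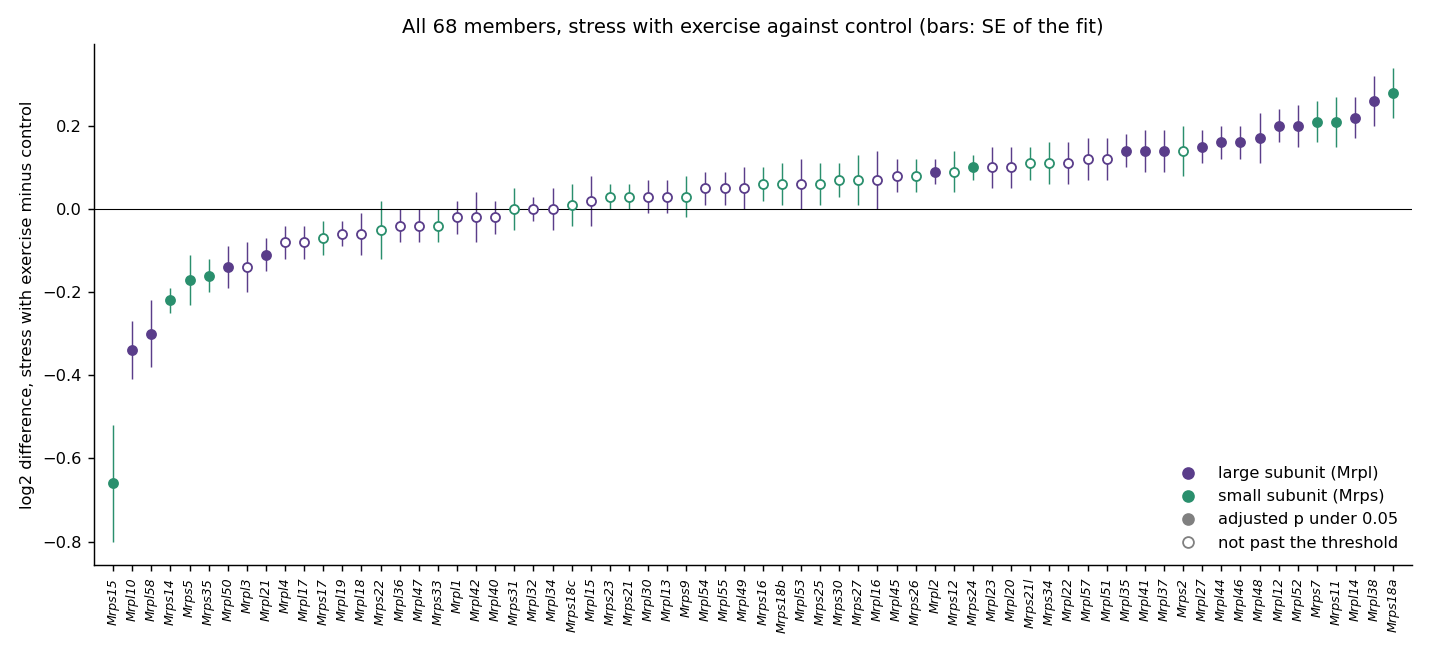
Log2 difference between stress with exercise and control for each of the 68 genes, sorted by size, with the SE of the fit as bars. Purple marks the large and green the small subunit, filled points passed an adjusted p of 0.05. The 24 filled points sit at both ends, from -0.66 (Mrps15) to 0.28 (Mrps18a), with both subunits on each side.

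Both members of the factor-binding stalk named here passed, Mrpl12 higher and Mrpl10 lower. Mrpl12, the counterpart of the bacterial stalk protein that brings translation factors to the ribosome, was at 3.90, 3.98 and 4.06 in control rats, 3.96, 4.03 and 4.19 in stress rats and 4.16, 4.19 and 4.21 with exercise. It rose by 0.20 (SE 0.04, adjusted p = 0.00224), and exercised and control rats did not overlap. Mrpl10, which anchors that stalk, was at 6.98, 7.01 and 7.14 in control rats, 6.67, 6.88 and 7.04 in stress rats and 6.55, 6.68 and 6.86 with exercise. It fell by 0.34 (SE 0.07, adjusted p = 0.00197), again with no overlap of exercised and control rats. Over all members 14 did not overlap, 11 higher and 3 lower, against 18% of all probes.

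Of the 3 genes that descend from bacterial S18, only Mrps18a passed. Mrps18a was at 2.44, 2.61 and 2.67 in control rats and rose by 0.28 (SE 0.06, adjusted p = 0.00276), with every exercised rat above every control rat. Mrps18b, which sits in the small subunit at a site of its own, had means of -0.45 ± 0.09 in control and -0.39 ± 0.11 with exercise (SD, n = 6), a difference of 0.06 (SE 0.05, adjusted p = 0.431). Mrps18c, which takes the place of the bacterial protein, had means of 3.27 ± 0.09 and 3.28 ± 0.07, a difference of 0.01 (SE 0.05, adjusted p = 0.887). Whether Mrps18a differs from Mrps18b and Mrps18c was not tested. Mrps12, a protein of the decoding centre, did not pass at 0.09 (SE 0.05, adjusted p = 0.190).

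Among other proteins of bacterial descent, Mrps7 and Mrps11, which bind the ribosomal RNA of the head and the platform of the small subunit, rose by 0.21 each (SE 0.05 and 0.06, adjusted p = 0.00657 and 0.0140). Mrpl14 rose by 0.22 (SE 0.05, adjusted p = 0.00279). On the lower side, Mrps15, which binds the ribosomal RNA of the small subunit early in assembly, had the largest difference of any member. It was at 0.89, 1.10 and 1.24 in control rats and at 0.35, 0.44 and 0.50 with exercise, a fall by 0.66 (SE 0.14, adjusted p = 0.00238). Stress rats 1 to 4 lay between 1.11 and 1.20, among the control rats, while stress rats 5 and 6 lay at 0.33 and 0.43, among the exercised rats. Mrps14 was at 1.33, 1.39 and 1.41 in control rats and fell by 0.22 (SE 0.03, adjusted p = 5.50e-04), the lowest adjusted p of the 68. Mrps5, whose bacterial counterpart lies near the entrance of the message, fell by 0.17 (SE 0.06, adjusted p = 0.0367), and Mrpl21 fell by 0.11 (SE 0.04, adjusted p = 0.0437).

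Members gained in the mitochondrial line also went both ways. Mrpl38 was at -0.31, -0.27 and -0.17 in control rats and at -0.06, -0.01 and 0.10 with exercise, with no overlap, and rose by 0.26 (SE 0.06, adjusted p = 0.00397). Mrpl52 was at -0.30, -0.18 and -0.09 in control rats and at -0.06, -0.01 and 0.20 with exercise, and rose by 0.20 (SE 0.05, adjusted p = 0.00624). Mrpl48 rose by 0.17 (SE 0.06, adjusted p = 0.0421). Mrpl44, whose fold resembles that of the nuclease RNase III, rose by 0.16 (SE 0.04, adjusted p = 0.00619). Mrpl58, also named Ict1, a peptidyl-tRNA hydrolase that frees stalled ribosomes and became part of the large subunit, fell by 0.30 (SE 0.08, adjusted p = 0.00854). Its levels were 4.49, 4.67 and 4.81 in control rats, 4.31, 4.55 and 4.78 in stress rats and 4.26, 4.36 and 4.50 with exercise, so that exercised and control rats overlapped. Mrps35 fell by 0.16 (SE 0.04, adjusted p = 0.00844) and Mrpl50 by 0.14 (SE 0.05, adjusted p = 0.0295). The other 7 members that rose (Mrpl2, Mrpl27, Mrpl35, Mrpl37, Mrpl41, Mrpl46 and Mrps24) did so by 0.09 to 0.16, and the remaining 44 of 68 did not pass.

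**Figure D2:**
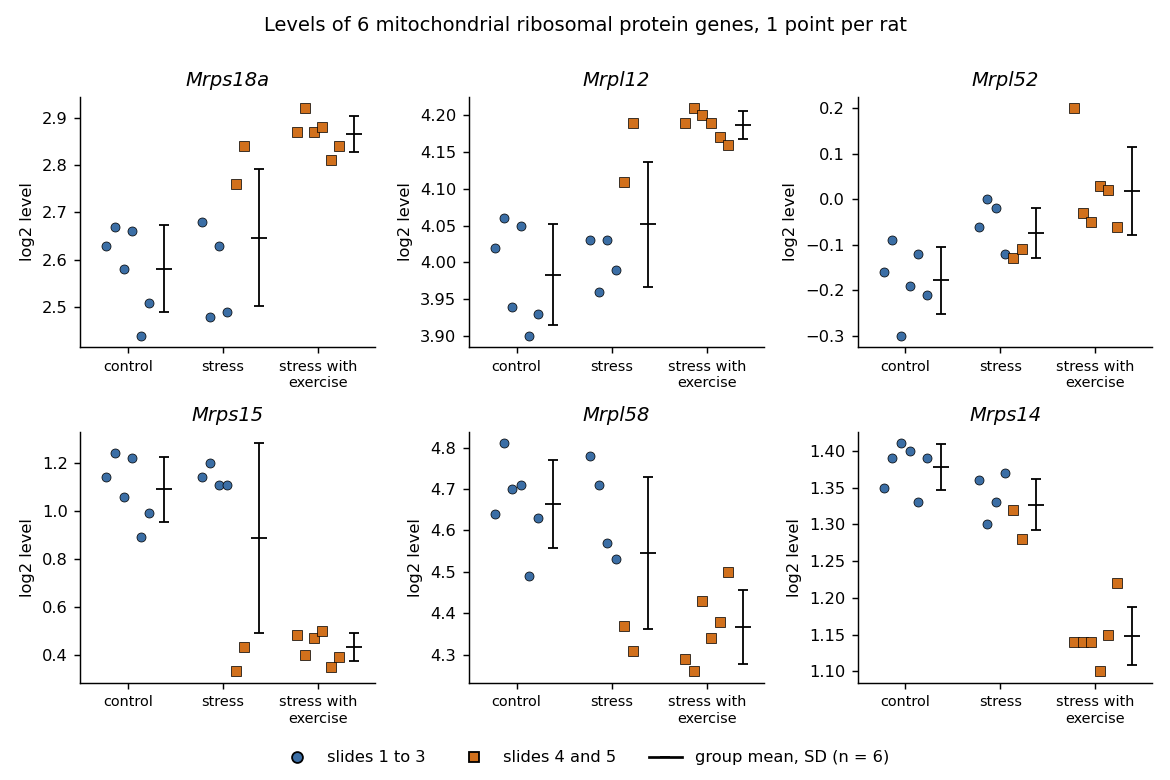
Log2 level relative to the array's 75th percentile of 6 members in each rat, by group. Circles are arrays of slides 1 to 3, squares those of slides 4 and 5, and bars the group mean with its SD (n = 6). In Mrps15 stress rats 5 and 6 (0.33 and 0.43) lie with the exercised rats, whereas in Mrps14 and Mrpl52 they lie with the other stress rats.

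Control and exercised rats shared no slide, so in that comparison treatment and slide set cannot be told apart without the stress rats, which lay on both sets. Stress rats 5 and 6 (slide 4) were therefore compared with stress rats 1 to 4 (slide 3), which had the same treatment. Slide 4 was scanned on scan day 1 and slide 3 on scan day 2, so this comparison holds slide and scan day together. Between these stress rats 14 members differed, 12 higher and 2 lower on slide 4 (20.6%), against 17.3% of all probes (7.14% higher, 10.2% lower). Mrps15 was lower by 0.76 on the log2 scale: its difference was -0.76 (SE 0.08, adjusted p = 5.33e-06). Mrpl58 differed by -0.31 (SE 0.09, adjusted p = 0.0240). The largest differences on the higher side were those of Mrps11 (0.30, SE 0.05), Mrpl20 (0.28, SE 0.04), Mrpl38 (0.27, SE 0.06), Mrpl53 (0.25, SE 0.06), Mrps18a (0.23, SE 0.07), Mrpl51 (0.21, SE 0.06), Mrpl22 (0.19, SE 0.05) and Mrpl37 (0.19, SE 0.05), with adjusted p from 2.44e-04 to 0.0311. Mrpl20 is an RNA-binding protein of the large subunit core and Mrpl22 lines its exit tunnel. With scan day as a block, set by the control and exercised rats, 16 members were higher and 1 lower (25%). In that fit 4391 of all 31293 tested probes passed. In 36 members the 2 rats of slide 4 lay outside the range of the 4 rats of slide 3, against 39.9% of all probes. Without stress rat 6 the count fell to 4, with 1 array left on slide 4, whose spread is then taken from the other groups.

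Of the 24 members called between stress with exercise and control, 23 had the same sign between the stress rats of both slides, and 8 were called there too, out of the 14 called there. The exception in sign was Mrpl52. Such counts were not made over all called probes, so these shares may not be particular to the members. The comparison of exercised with control rats and that between stress rats share no array. Over the 68 members their differences had a Pearson r of 0.81 and a Spearman rho of 0.62, and r was 0.71 without Mrps15 and 0.67 over all tested probes. Genes are not independent replicates, and the points share the slide sets on both axes.

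**Figure D3:**
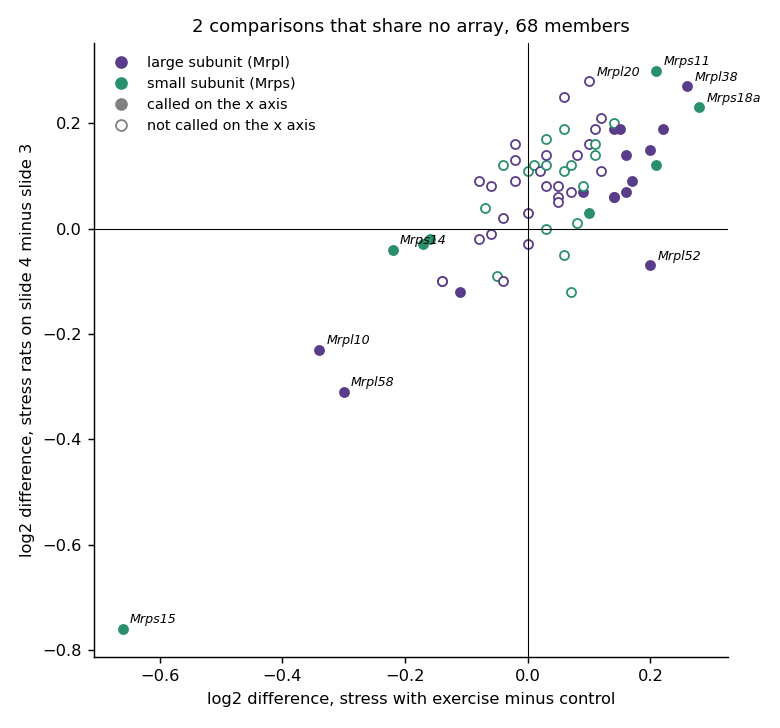
For each of the 68 genes, the log2 difference between stress with exercise and control (x axis) against the log2 difference between stress rats on slide 4 and on slide 3 (y axis), which had 1 treatment. Filled points were called on the x axis, purple is the large and green the small subunit. Mrps15 lies at -0.66 and -0.76, and Mrpl52 (0.20 on the x axis) lies below 0 on the y axis.

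With the slide set as a covariate no member passed in any of the 3 comparisons. Over all probes 1 passed between stress and control (0.00320%), 5 between stress with exercise and stress (0.0160%) and 4 between stress with exercise and control (0.0128%). In the last comparison the median SE of the members rose from 0.05 to 0.07. Only the stress group lay on both slide sets. Its 2 rats of slide 4 and 4 rats of slide 3 alone therefore set the covariate, which also holds their difference in scan day. The adjusted difference between stress with exercise and control is thus the unadjusted one minus that between these stress rats. Of the 24 called members, 16 turned sign or shrank to under 50% of their size, and 7 of these turned sign. These shifts follow from the comparison of slides 4 and 3 and are not a further test of it. Mrps15 went from -0.66 to 0.11 (SE 0.10), Mrpl58 from -0.30 to 0.01 (SE 0.11), Mrps11 from 0.21 to -0.09 (SE 0.06), Mrpl38 from 0.26 to -0.01 (SE 0.07) and Mrps18a from 0.28 to 0.05 (SE 0.08). Mrpl10 went from -0.34 to -0.11 (SE 0.10) and Mrpl12 from 0.20 to 0.06 (SE 0.06).

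A few members kept most of their difference. Mrps14 was at -0.18 (SE 0.05), with an unadjusted p of 0.00174 and an adjusted p of 0.321, the lowest of the members. Mrpl52 was at 0.27 (SE 0.08, adjusted p = 0.362), Mrps35 at -0.14 (SE 0.07, adjusted p = 0.586) and Mrps5 at -0.14 (SE 0.10, adjusted p = 0.737). None of these passed. With each slide as a random block instead (correlation within a slide 0.372), 3 of 68 members passed (4.41%), all lower, against 5.29% of all probes, so their share lay near the background: Mrps14 (-0.22, adjusted p = 0.0208), Mrpl10 (-0.33, adjusted p = 0.0459) and Mrps15 (-0.56, adjusted p = 0.0495).

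**Figure D4:**
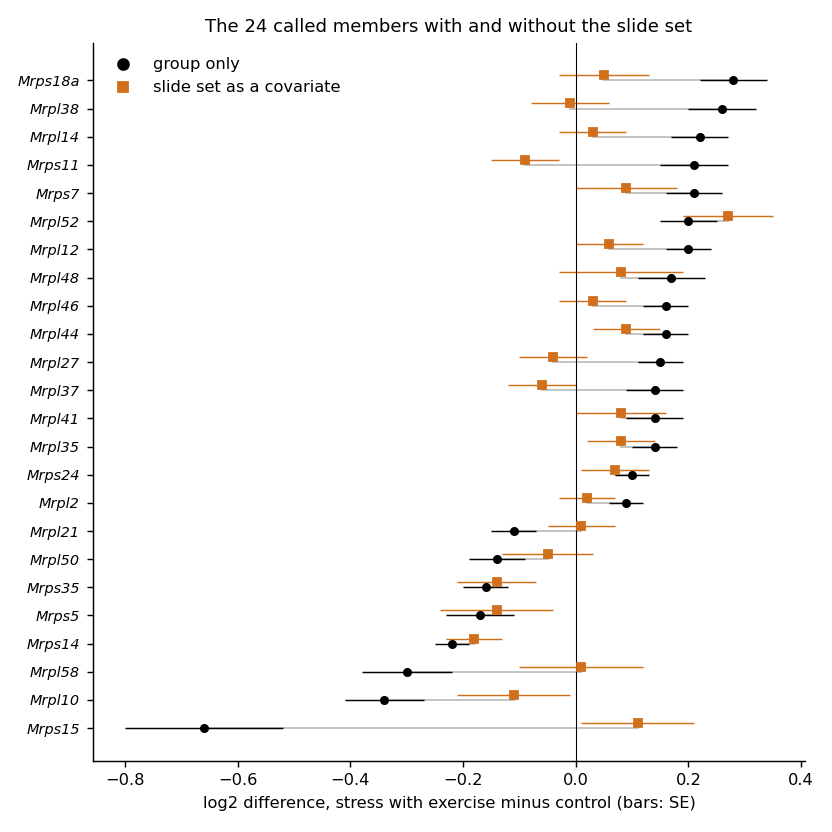
Log2 difference between stress with exercise and control of the 24 called members, from the fit on group alone (black circles) and after adding slide set as a covariate (orange squares), with SE bars. Mrps15 moves from -0.66 to 0.11 and Mrps14 from -0.22 to -0.18, and Mrpl52 moves away from 0, to 0.27.

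Both subunits had members in each direction. In exercised against control rats, 12 of 42 large-subunit genes were higher and 4 lower, with a median difference of 0.05, and 4 of 26 small-subunit genes were higher and 4 lower, with a median of 0.06. These counts are 38.1% and 30.8% of the genes, against 27.2% of all probes, and the share of the small subunit lay near that background. Averaged per rat, the large-subunit genes were at 2.50 ± 0.03 in control, 2.52 ± 0.04 in stress and 2.54 ± 0.01 with exercise (SD, n = 6). The small-subunit genes were at 1.90 ± 0.03, 1.92 ± 0.03 and 1.91 ± 0.01. The mean of all 68 was between 2.23 and 2.36 in every rat. The highest mean of the stress group in both subunits was that of stress rat 6. Counting Mrps18a and Mrps30 with the large subunit, where they lie in the mammalian ribosome, gave 13 higher and 4 lower of 44, and 3 higher and 4 lower of 24.

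**Figure D5:**
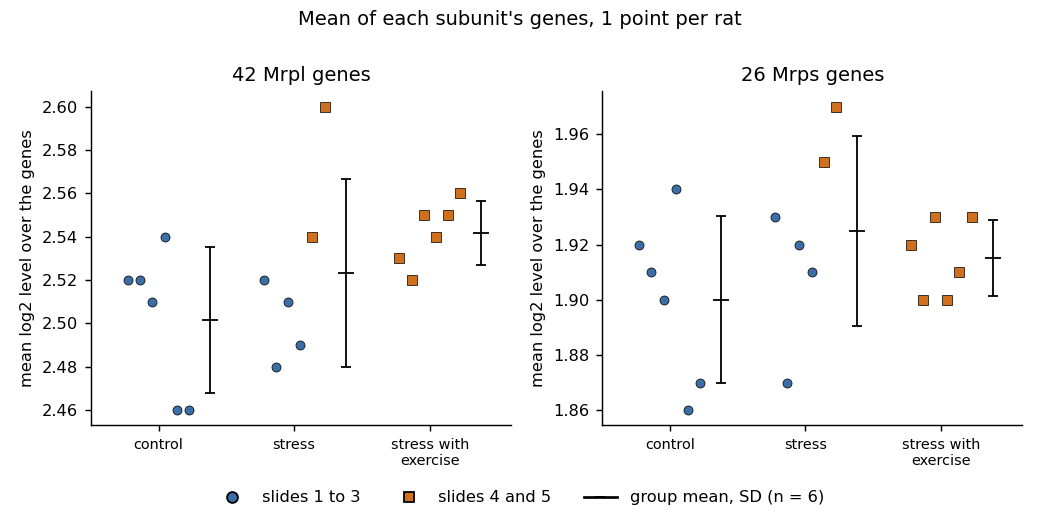
Mean log2 level over the 42 large-subunit genes (left) and the 26 small-subunit genes (right) in each rat, by group, with circles for slides 1 to 3, squares for slides 4 and 5 and bars for the group mean and SD (n = 6). Group means differ by a few hundredths, from 2.50 to 2.54 and from 1.90 to 1.92.

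For some members the probes did not tell 1 story. Of 12 members with more than 1 tested probe, 4 had probes that differed in the call between stress with exercise and control. The bright probe of Mrpl17 gave -0.08 (adjusted p = 0.194) and its dimmer probe -0.34 (adjusted p = 0.00109). The bright probe of Mrpl36 gave -0.04 (adjusted p = 0.389) and its dimmer probe 0.16 (adjusted p = 0.00697). For Mrps11 the second probe gave 0.07 (adjusted p = 0.348) and for Mrps35 -0.12 (adjusted p = 0.584), beside called bright probes. Which transcripts each probe reads was not tested.

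Promoters were read for members that were called together, to show what their start regions hold. RefSeq windows of assembly GRCr8, 250 bases before to 50 bases from the annotated start, were at hand for 55 of the 68 members, the first window being taken for the 2 that have more. The motifs searched on both strands were NRF1 (GCGC, then any base, then TGCGC), the ETS family to which GABP belongs (CCGGAAGT) and YY1 (AAGATGGCG), 3 factors known to act at nuclear genes of mitochondria. None of the 3 motifs contains another. NRF1 letters were in 9 of 55 members (16.4%), 4.25% of all 33469 windows and 8.64% of windows of tested genes. ETS letters were in 8 members (14.5%), 3.81% of all windows and 7.18% of windows of tested genes. YY1 letters were in 8 members (14.5%), 1.73% of all windows and 3.12% of windows of tested genes. At least 1 of the 3 was in 23 of 55 members: in 8 of 13 called higher, 1 of 6 called lower and 14 of 36 not called. The share of members was 41.8%, against 9.03% of all windows and 17.2% of windows of tested genes. Whether called members differ from the others in this was not tested. A match is only a run of letters. GC content of the members' windows had a median of 56.3%, against 60.0% in tested genes.

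The windows below are those of Mrps18a (YY1 letters at the start), Mrpl44 (NRF1 letters) and Mrpl52 (ETS letters), which were higher, of Mrps15 and Mrps14, which were lower and hold none of the 3, and of Mrpl46 (YY1 letters). Each is written 5′ to 3′ on the strand of the gene, with motif matches in capitals.
Mrps18a, chr9:22367331-22367630, minus strand: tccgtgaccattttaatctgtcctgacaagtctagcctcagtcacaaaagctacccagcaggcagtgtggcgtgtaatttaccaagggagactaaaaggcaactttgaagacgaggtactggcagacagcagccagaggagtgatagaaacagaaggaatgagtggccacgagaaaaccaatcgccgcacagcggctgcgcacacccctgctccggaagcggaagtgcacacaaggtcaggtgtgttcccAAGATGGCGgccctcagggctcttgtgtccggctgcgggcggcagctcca
Mrpl44, chr9:88554800-88555099, plus strand: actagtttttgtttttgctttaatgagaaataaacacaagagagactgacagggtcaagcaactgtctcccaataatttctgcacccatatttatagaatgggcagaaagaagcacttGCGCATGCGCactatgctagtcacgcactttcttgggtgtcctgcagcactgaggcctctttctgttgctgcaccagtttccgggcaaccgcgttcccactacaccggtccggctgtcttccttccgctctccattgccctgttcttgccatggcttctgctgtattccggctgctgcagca
Mrpl52, chr15:31852686-31852985, plus strand: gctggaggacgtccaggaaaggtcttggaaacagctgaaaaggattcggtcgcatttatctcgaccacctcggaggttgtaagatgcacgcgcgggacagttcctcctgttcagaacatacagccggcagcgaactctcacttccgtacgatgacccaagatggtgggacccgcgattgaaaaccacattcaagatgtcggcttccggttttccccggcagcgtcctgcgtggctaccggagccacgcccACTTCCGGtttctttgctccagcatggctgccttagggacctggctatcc
Mrps15, chr5:143605891-143606190, plus strand: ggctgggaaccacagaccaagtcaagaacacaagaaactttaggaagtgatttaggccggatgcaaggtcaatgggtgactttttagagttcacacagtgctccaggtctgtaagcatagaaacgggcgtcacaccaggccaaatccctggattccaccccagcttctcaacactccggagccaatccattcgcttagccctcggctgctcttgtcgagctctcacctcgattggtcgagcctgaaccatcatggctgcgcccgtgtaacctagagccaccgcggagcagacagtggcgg
Mrps14, chr13:74962347-74962646, plus strand: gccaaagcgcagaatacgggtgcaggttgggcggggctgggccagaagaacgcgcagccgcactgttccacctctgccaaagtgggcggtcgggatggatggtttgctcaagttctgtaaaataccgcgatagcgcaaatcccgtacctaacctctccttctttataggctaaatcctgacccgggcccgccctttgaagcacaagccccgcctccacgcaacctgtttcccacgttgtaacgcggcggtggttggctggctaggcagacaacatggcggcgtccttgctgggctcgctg
Mrpl46, chr1:142116981-142117280, minus strand: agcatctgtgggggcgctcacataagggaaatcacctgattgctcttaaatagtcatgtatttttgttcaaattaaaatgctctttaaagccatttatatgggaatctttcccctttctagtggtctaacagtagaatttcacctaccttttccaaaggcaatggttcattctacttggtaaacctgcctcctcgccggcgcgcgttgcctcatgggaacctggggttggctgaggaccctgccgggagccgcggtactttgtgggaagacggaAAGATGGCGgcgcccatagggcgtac

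Mrpl46 and Mrps11 were the 1 pair of members that neighbour each other among protein-coding genes. Their windows lie on opposite strands and overlap by 267 bases, so the Mrpl46 window also covers most of that of Mrps11. Both were higher with exercise than in control, Mrpl46 by 0.16 (SE 0.04, adjusted p = 0.00824) and Mrps11 by 0.21. Between stress rats of slides 4 and 3 they differed by 0.14 (SE 0.05, adjusted p = 0.0770) and 0.30. The fit with slide set takes that difference off, which left 0.03 and -0.09 between exercised and control rats.

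Genes that work with the mitochondrial ribosome were read from lists chosen by function. In each list the share called between exercised and control rats, from 22.2% to 50% of the genes, stands beside 27.2% of all probes, and for translation factors, assembly factors, tRNA synthetases and regulators it lay within 10 percentage points of that background. In exercised against control rats, 3 of 6 further proteins of the ribosome or bound to it rose, namely Dap3, a GTP-binding protein of the small subunit (0.23, SE 0.06, adjusted p = 0.00779), the large-subunit protein Gadd45gip1 (0.19, SE 0.04, adjusted p = 0.00349) and Oxa1l (0.13, SE 0.04, adjusted p = 0.0187), the last an insertase of the inner membrane that receives new chains. Of 12 tested translation factors 3 were higher and 1 lower. Tufm, the elongation factor that carries aminoacyl-tRNA, rose by 0.28 (SE 0.05, adjusted p = 0.00129), its exchange factor Tsfm by 0.13 (SE 0.04, adjusted p = 0.0217), and the release factor Mtrf1l fell by 0.17 (SE 0.06, adjusted p = 0.0431). Taco1, an activator of cytochrome oxidase translation, rose by 0.34 (SE 0.11, adjusted p = 0.0246). Of 22 tested assembly factors 6 were higher and 2 lower, among them Mterf4 (0.32, SE 0.08), Fastkd2 (0.26, SE 0.06), Nsun4 (-0.24, SE 0.06) and Ybey (-0.69, SE 0.15).

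Of 16 tested tRNA synthetases of mitochondria 4 were higher and 1 lower, with Sars2 at 0.23 (SE 0.06), Pars2 and Tars2 at 0.17 (SE 0.04 and 0.06) and Kars1, which also serves the cytosol, at -0.16 (SE 0.04). Of 15 tested genes that supply mitochondrial RNA 6 were higher and none lower. Polrmt, the RNA polymerase of mitochondria, rose by 0.39 (SE 0.07, adjusted p = 9.98e-04), Elac2, which cuts tRNA ends, by 0.27 (SE 0.07), Polg, the DNA polymerase, by 0.24 (SE 0.09) and the helicase Twnk by 0.16 (SE 0.04). Of 9 regulators 2 were higher, Pprc1, a coactivator of nuclear genes for mitochondria (0.24, SE 0.04, adjusted p = 7.31e-04), and Myc (0.19, SE 0.04, adjusted p = 0.00159). Nrf1, Gabpa and Yy1 did not pass, at 0.15 (SE 0.11), -0.04 (SE 0.04) and 0.03 (SE 0.05). None of the genes in these lists passed between stress and control or between stress with exercise and stress. With the slide set as a covariate, as examples, Tufm was at 0.03, Polrmt at 0.04, Ybey at 0.00, Taco1 at 0.25, Pprc1 at 0.14 and Myc at 0.19. In that fit 0.0128% of all probes passed. SE and adjusted p of these genes are not given, so the values do not show that any difference remained.

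Markers of cell types were read in the same groups. Between exercised and control rats 27.2% of all probes were called. The share called was 66.7% of the striatal and 50% of the oligodendrocyte list. It lay near that background for astrocytes, microglia and pituitary (33.3% each). For choroid plexus (16.7%), hypothalamus and neurons (14.3% each) it lay below. Of 14 hypothalamic markers Npy was higher with exercise than in control (0.34, adjusted p = 0.00965) and Trh lower (-0.30, adjusted p = 0.00941). The microglial marker Tmem119 was the 1 marker called between stress with exercise and stress (0.26, adjusted p = 0.0386), where 3.74% of all probes were called. Of 6 oligodendrocyte markers 3 were higher with exercise than in control, and the list's mean level was 5.05 to 5.22 in control, 5.13 to 5.33 in stress and 5.30 to 5.45 with exercise. Stress rats 5 and 6 were at 5.30 and 5.33 in that list, and stress rats 1 to 4 at 5.13 to 5.25. Of 6 striatal markers 4 were higher, at -0.24 to -0.03 in control, -0.11 to 0.48 in stress and -0.02 to 0.85 with exercise. In that list stress rats 5 and 6 (0.14 to 0.19) lay within the range of stress rats 1 to 4 (-0.11 to 0.48). Of 7 neuronal markers 1 was higher, at 3.40 to 3.63 in control, 3.39 to 3.60 in stress and 3.51 to 3.60 with exercise. In the neuronal list stress rats 5 and 6 were at 3.58 to 3.60 and stress rats 1 to 4 at 3.39 to 3.49. Of 6 astrocyte and 6 microglial markers 1 each was higher and 1 lower, and no marker of endothelium, thalamus or erythrocytes passed. Of 6 choroid plexus markers 1 was lower, and 3 were well above background on all arrays. Of 6 pituitary markers 3 were tested and 1 was lower, with Prl above background on no array. The mean of the pituitary list was -4.95 to -1.96 in control, -2.14 to -1.17 in stress rats 1 to 4, -5.70 to -5.22 in stress rats 5 and 6 and -5.43 to -2.55 with exercise. The part of these cells in the members' differences was not tested. In whole tissue, fewer cells of a type and less RNA per cell cannot be told apart.

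The genes most like Mrps14 in pattern, by Pearson correlation of levels over the 18 arrays, were Nudt9 (0.93), Acp1 (0.92), Tm7sf3 (0.92), Abcb10 (0.92) and Rabggtb (0.91). Within slides 1 to 3 (10 arrays) the values for these 5 genes were 0.29 to 0.65, and within slides 4 and 5 (8 arrays) 0.73 to 0.93. These are descriptions over arrays that share slides and groups.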

How the data were processed

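The intensity of each spot is the processed signal that the authors deposited, as computed by Agilent Feature Extraction, version 12.1.0.3 per the file headers and 9.1 per the submitters' processing notes. The array was designed on build rn4. The deposited series matrix holds the same intensity times 1 constant per array (column medians 156.67 to 176.491), linear and not centred; the sources used here do not say how the constant was set. Per the labels, RNA input was 100 ng in one text and 200 ng in another.

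From there, control and outlier spots (297 to 580 per array) were left out, spots of 1 probe averaged, and log2 values taken minus the array's 75th percentile (intensity 423 to 528). No spot was saturated. Probes well above background on at least 5 of 6 arrays of a group were tested (31293 of 45598). Probes were named through transcript accessions in the RefSeq table of GRCr8 (21220 with 1 symbol, 24378 with none). The brightest probe stands for a gene. Groups were compared with limma 3.58.1 (lmFit, eBayes; R 4.3.3) on all 18 arrays, group as the only term, two-sided, Benjamini-Hochberg over all tested probes; for slide 4 against slide 3 the stress rats were fitted as 2 groups. Comparisons within a scan day, and that on slide 4 alone, split the groups by scan day and took the spread from all 18 arrays. The fit was tested on simulated data. Nothing says that rats were pooled. The p-values of the group fit treat the arrays as independent, although arrays of 1 slide correlated at 0.372. The spread they rest on is that between single rats, and in the stress group it also holds the difference between slides. The number of arrays limits the precision.

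Members, lists and tests were chosen with earlier results of these data known. Named are up to 8 members passing per direction, or the 3 with the smallest p where none passed, the members Mrpl12, Mrpl44, Mrps12, Mrps18a, Mrps18b and Mrps18c, up to 4 passing partner genes per role, and the 5 genes most like the member with the lowest adjusted p; Mrpl2, Mrpl17, Mrpl19, Mrpl27, Mrpl35, Mrpl36, Mrpl37, Mrpl41, Mrpl46, Mrps15 against stress, Nrf1, Gabpa, Yy1, Npy, Trh and Tmem119 were named after their values were seen. Other settings tried were scaling, background correction (normexp, offset 50, on median signals, as mean signals were not used here), matrix values, the filter, slide, scan day, variance model, threshold and leaving out each rat.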

Additional observations from a re-analysis of the deposited data

Results flagged for a closer look

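In 2 of 93 groups checked (27 members and 4 means over members, each in 3 groups of 6 rats), 1 rat lay far from the others, with a gap to the nearest rat of 0.65 and 0.66 of the group's range, past Dixon's critical value. Chance alone gives such a gap in about 1 of 20 groups. Mrpl52 was at 0.20 in stress+exercise rat 1, with the other 5 at -0.06 to 0.03. Without that rat the difference of Mrpl52 between stress with exercise and control was 0.16 and still passed. Mrps12 was at 2.51 in the same rat, with the others at 2.59 to 2.64.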

How the results depend on the processing

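Of the 24 members called between stress with exercise and control, 16 kept their sign in all 32 alternatives. The count of members was 6 without scaling, 0 with the slide set as a covariate and 3 with slide as a random block. It was 14 within scan day 2, 13 at an adjusted p under 0.01, and 17 to 26 when each rat was left out. Over all 31293 tested probes 8506 were called in this comparison. That count was 5171 without scaling, 4 with the slide set, 1654 with the random block and 6789 within scan day 2. Between stress with exercise and stress (1 called) the count of members was 2 with quantile normalization, the authors' matrix values or the stricter filter. It was 3 without scaling, 5 with normexp or with trend and robust variance, and 4 with the scan day blocked. No member passed (0) without a filter, with the slide set, with the random block, within 1 slide set, with only the compared arrays, at an adjusted p under 0.01 and within scan day 1. The count was 25 within scan day 2 and 0 to 10 when each rat was left out (10 without stress rat 6, 7 without stress rat 5). Over all probes 1169 were called in this comparison, 1538 with quantile normalization, 1159 with the matrix values and 1374 without scaling. There were 1617 with normexp, 3113 with the scan day blocked and 8744 within scan day 2. With the slide set there were 5, with the random block 0, within 1 slide set 3 and within scan day 1 4. Between stress and control the count of members was 22 within scan day 1, beside 6079 of all probes, and 0 to 0 when each rat was left out. Between slides 4 and 3 (14 called) it was 4 without scaling or with only the compared arrays, 6 at an adjusted p under 0.01, and 4 to 17 when each rat was left out. Over all probes 5417 were called between slides 4 and 3, and 3219 without scaling. Counts over all probes are not given for the other settings. The cause of these shifts was not tested. A stricter threshold can only lower a count.

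The replicate numbers share only a number: over 18 same-numbered pairs, deviations from group means correlated at -0.24 to 0.19 (median -0.06), 4 of them over 0.1. With the replicate block the counts were 0, 0 and 17, and the large-minus-small differences -0.01, 0.02 and 0.00.

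Turned in sign were, between stress and control, Mrpl12 (-0.04), Mrps12 (-0.06) and Mrps18a (-0.08) within scan day 2, Mrps18a (-0.01) and Mrps18c (-0.01) with the slide set and within 1 slide set, and Mrps12 when rats were left out (-0.01 to 0.04). Between stress with exercise and stress they were Mrpl44 (-0.03), Mrps12 (-0.02) and Mrps18b (0.10) within scan day 1, Mrps18b (0.02) with the random block, and Mrps18c with normexp (0.09) and within scan day 2 (0.06). Between stress with exercise and control they were Mrpl38 (-0.01), Mrps11 (-0.09), Mrps15 (0.11), Mrpl58 (0.01), Mrpl21 (0.01) and Mrps18c (-0.11) with the slide set, Mrps18b with normexp (-0.06), and Mrps18c without scaling (-0.04), with the random block (-0.02), within scan day 1 (-0.09) and when rats were left out (-0.01 to 0.04).

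The median difference of large minus small subunit was -0.01 between stress and control and 0.01 with normexp, the slide set or 1 slide set and 0.02 within scan day 2. Between stress with exercise and stress it was 0.02, 0.04 with the slide set or 1 slide set and -0.02 within scan day 1. Between stress with exercise and control it was 0.00, 0.01 by structure or quantile normalization, 0.05 with normexp, 0.02 with the slide set and -0.02 within scan day 2. Within 1 slide set, exercise could not be compared with control, and slide alternatives and pairing do not apply to slide 4 against slide 3.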
